A study of Mus musculus with 11 samples.

Results

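Respiratory chain assembly factors are proteins that help to build the complexes of oxidative phosphorylation and, with few exceptions, are not part of the finished enzymes. The genes described here are the protein-coding mouse genes whose GENCODE symbol names such a factor (the Ndufaf, Sdhaf, Uqcc, Coa and Atpaf families, Cox10, Cox11 and Cox14 to Cox20, Sco1, Sco2, Surf1, Bcs1l, Lyrm7, Ttc19, Taco1, Pet100, Pet117, Foxred1, Nubpl, Ecsit and Timmdc1). The symbols gave 44 genes of the 48709 gene identifiers counted. Of these, 12 serve complex I, 4 complex II, 6 complex III, 20 complex IV and 2 complex V. Within complex IV, 9 make its haem or deliver its copper and 11 act in other steps. After a filter on low counts, 42 of the 44 were tested.

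RNA came from CA1, the output field of the hippocampus, dissected from the brains of mice at 3 months of age. The 6 transgenic libraries were from mice of the genotype CamkdeltaC transgenic and the 5 control libraries from littermate controls, with no further allele or agent named for either group. CamkdeltaC is a variant of CaMKII delta, a calcium-responsive kinase. The line is known as a heart failure model whose transgene is active in heart muscle, so the brain is not its intended site. Whether the transgene is active in CA1 was not tested. By its title the series looks at memory loss in heart failure, and the question put to CA1 is how its transcripts differ between the genotypes. Males and females were both used, but the labels give no sex, litter or batch for a library. They do not state that each library is a separate animal. The p-values therefore measure only how far these samples vary, and part of that variation may be technical.

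Each respiratory complex is put together from parts made in the mitochondrion and parts imported from the cytosol, in a fixed order and with cofactors added on the way. Assembly factors hold the intermediates, modify subunits, and insert haem, copper, flavin and iron-sulphur clusters. Neurons depend heavily on oxidative phosphorylation, and inherited loss of many of these factors causes mitochondrial disease of the brain, of which Leigh syndrome with SURF1 loss is a textbook example.

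The promoters are shown because the regulators GABPA, NRF1 and YY1 are known to act on nuclear genes of the respiratory chain, and because both genes called higher and genes called lower carry letters that match their sites. Each stretch runs from 150 bases before the transcription start to 30 after it and is read 5′ to 3′ on the gene's strand, from RefSeq on build GRCm38.p6. Capitals mark matches to CCGGAAG (an ETS site, the family of GABPA), GCGCATGC (the NRF1 core) or AAGATGGCG (a YY1 site) on either strand.
Ndufaf8, chr11:120098784-120098963, plus strand: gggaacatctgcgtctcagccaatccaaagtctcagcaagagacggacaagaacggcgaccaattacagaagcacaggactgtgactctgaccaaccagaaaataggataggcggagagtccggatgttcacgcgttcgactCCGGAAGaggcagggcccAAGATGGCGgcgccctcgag
Surf1, chr2:26916501-26916680, minus strand: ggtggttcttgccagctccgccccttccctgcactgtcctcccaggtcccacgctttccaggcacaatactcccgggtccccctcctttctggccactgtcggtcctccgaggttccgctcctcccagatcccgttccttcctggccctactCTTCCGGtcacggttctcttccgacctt
Sdhaf3, chr6:6955868-6956047, plus strand: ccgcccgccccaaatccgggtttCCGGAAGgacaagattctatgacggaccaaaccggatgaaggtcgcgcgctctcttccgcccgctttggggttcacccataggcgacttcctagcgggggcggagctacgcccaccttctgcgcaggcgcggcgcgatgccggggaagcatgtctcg
Ndufaf4, chr4:24897933-24898112, plus strand: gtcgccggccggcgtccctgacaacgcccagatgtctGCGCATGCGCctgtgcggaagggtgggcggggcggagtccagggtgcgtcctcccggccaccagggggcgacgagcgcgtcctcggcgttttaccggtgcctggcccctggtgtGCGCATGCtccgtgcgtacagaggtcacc
Ttc19, chr11:62281323-62281502, plus strand: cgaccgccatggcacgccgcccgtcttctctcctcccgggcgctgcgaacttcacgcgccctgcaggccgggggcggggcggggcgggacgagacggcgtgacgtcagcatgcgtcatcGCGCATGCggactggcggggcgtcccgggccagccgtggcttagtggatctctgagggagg
Ndufaf8 and Surf1 are from the genes called higher in transgenic CA1, and Sdhaf3, Ndufaf4 and Ttc19 are all 3 genes called lower. Positions are counted from the start, negative before it. In Ndufaf8 the ETS match lies at -8 to -2 and the YY1 match at 11 to 19. In Surf1 the ETS match is on the opposite strand, at 3 to 9. In Sdhaf3 an ETS match lies at -127 to -121. Ndufaf4 has 2 overlapping NRF1 matches, on opposite strands, at -113 to -106 and -111 to -104, and another at 2 to 9. Ttc19 has 1 NRF1 match, at -31 to -24.

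RefSeq gave a window of 250 bases before to 50 bases after the start for 40 of the 44 genes. Coa6, Cox17, Cox18 and Ndufaf6 are named only. The ETS letters occurred in 17 of the 40 genes (42.5%), against 8.86% of all 32851 windows and 17.8% of 11476 protein-coding genes that were tested and had a window. They occurred in 3 of the 7 genes called higher, 1 of the 3 called lower and 13 of the other 30, so the presence of the letters did not separate the genes called from the rest. The NRF1 core occurred in 3 of 40 (Ndufaf4, Ndufaf5 and Ttc19, 7.50%), against 2.71% of all windows and 5.59% of the tested coding genes. The core occurred in 0 of the 7 genes called higher, 2 of the 3 called lower and 1 of the other 30. These numbers are too small to compare, and a link to the direction was not tested. The YY1 letters occurred in Atpaf2, Cox10 and Ndufaf8 (3 of 40), against 1.40% and 3.13%. These shares are descriptions, and a match is not evidence of binding.

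Totals ran from 24403918 to 34153726 counts in transgenic libraries and from 14263784 (control 5) to 36898689 in controls. Within a genotype no library repeated another, since the chi-square of the 25 same-genotype pairs, divided by its degrees of freedom, was 6.24 to 49.0. Camk2d, the gene that the transgene carries, was at 67.8 ± 36.7 CPM in transgenic and 72.0 ± 18.6 CPM in control libraries (SD, n = 6 and 5, adjusted p = 0.873). It ran from 40.4 to 132 CPM in transgenic and from 53.7 to 94.3 CPM in control libraries. The CA1 pyramidal markers summed to 1302 to 1611 CPM in transgenic and 1129 to 1399 CPM in control libraries. Of these 7, edgeR called 0 and DESeq2 called 1. At an unadjusted p under 0.05 lay 4 of the 7, against 5996 of all 17293 tested genes. The dentate granule list summed to 91.5 to 225 and 87.0 to 260 CPM, with 0 of 6 called or at an unadjusted p under 0.05. The 5 heart muscle genes summed to 12.6 to 16.9 CPM in transgenic and 11.8 to 16.0 CPM in control libraries. Of these, Myl2, Actc1 and Nppa were below 1 CPM in every library, and Myh6 was at 9.21 ± 0.823 and 9.27 ± 1.24 CPM and Tnnt2 at 4.44 ± 1.95 and 3.62 ± 2.12 CPM (transgenic and control, SD, n = 6 and 5). Microglial markers were called higher for 5 of 10 genes, against 7.41% of all tested genes, while P2ry12 was at -0.24 without a call. Their sums were 362 to 470 CPM in transgenic and 328 to 396 CPM in control libraries, and 0 of 10 were called once the GC trend was removed. EdgeR called 1 of 8 interneuron genes higher, and 1 of 7 astrocyte genes higher and 1 lower. It called 1 of 6 endothelial and 1 of 5 mural genes lower. In the oligodendrocyte list 0 of 7 were called, with 7 fold changes above 0. The part of these cell types in the results below was not tested. In bulk tissue, fewer cells of a type and less RNA per cell cannot be told apart.

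Together the assembly factors took 0.104% to 0.107% of the counts in transgenic libraries and 0.0987% to 0.105% in controls. Levels between genes are compared in control libraries as CPM per kilobase of exon. The median of the 42 tested genes was 8.67 CPM per kb, against 5.18 over all tested protein-coding genes. The order was led by 3 genes: Uqcc2, which supports cytochrome b synthesis, at 57.8 ± 4.10, Cox14 at 53.1 ± 2.10 and Coa3 at 46.0 ± 4.37 (SD, n = 5). Cox14 and Coa3 bind newly made COX1, the core subunit of complex IV. The control values of Uqcc2 and Cox14 overlapped, and those of Coa3 lay below those of Cox14. Surf1 followed at 25.4 ± 0.885 and Ttc19 at 22 ± 1.3. At the low end of the tested genes, Cox20 was at 0.514 ± 0.124, Cox16 at 0.729 ± 0.0871 and Nubpl at 0.746 ± 0.0484 CPM per kb, each overlapping the next.

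**Figure D1:**
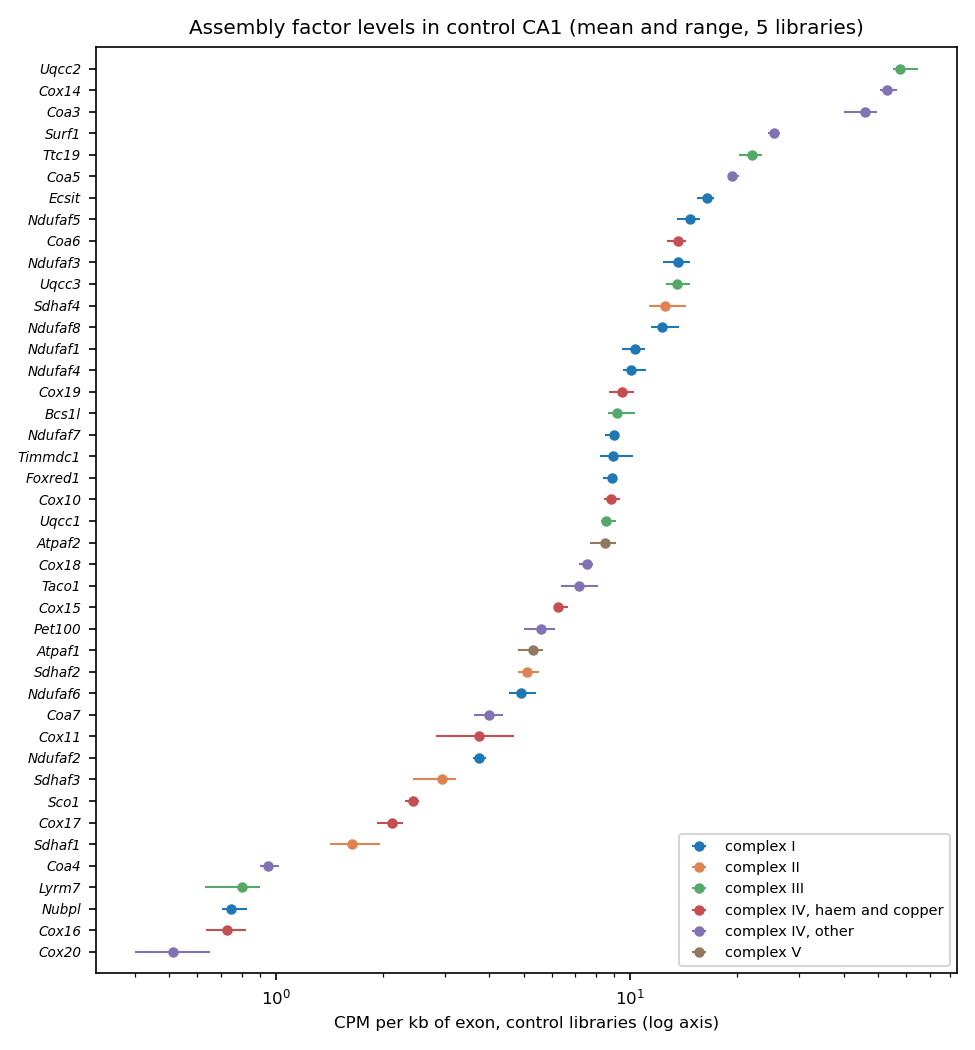
Control level of each tested assembly factor gene in CPM per kilobase of exon on a log axis. Points are means and bars the range of the 5 control libraries, coloured by the complex served. Uqcc2, Cox14 and Coa3 lead the order and Cox20, Cox16 and Nubpl end it.

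Some of these genes share exon bases with a neighbour. The kit does not mark strand, and how the authors' counting treated reads in shared exons is not given, so their values are uncertain. The part of this sharing in low or zero counts was not tested. Pet117, a complex IV factor, had 0 counts in all 11 libraries, and 100% of its exon bases lie in exons of Kat14. Sco2, a copper chaperone of complex IV, also had 0 counts, and 91.8% of its exon bases are shared with Tymp and Ncaph2. At 3 counts per library, a count of 0 allows up to 0.0813 CPM in the deepest and 0.210 CPM in the shallowest library, for reads counted to these genes. Cox20 shared 91.1% of its exon bases and had 6 to 27 counts. Sdhaf1 (69.6%), Ndufaf2 (65.6%), Cox16 (56.8%), Pet100 (52.6%), Cox11 (48.3%) and Ecsit (24.0%) are uncertain for the same reason. Such floors cover counting error only, and the reads carry no molecular identifiers.

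Between the genotypes, 7 of the 42 tested assembly factors were higher in transgenic CA1 and 3 were lower at an adjusted p under 0.05 in edgeR's quasi-likelihood test over 17293 genes. Ndufaf8, Uqcc3, Uqcc2, Ndufaf3, Coa3, Cox14 and Surf1 rose by 0.18 to 0.36 on the log2 scale. Sdhaf3, Ndufaf4 and Ttc19 fell by 0.46, 0.40 and 0.21. The share called higher was 16.7%, against 7.41% of all tested genes. The share called lower was 7.14%, against 10.5%, and the share called in either direction 23.8%, against 17.9%. The median log2 fold change was 0.09, against 0.01 over all tested genes. Of the 42, 29 were above 0, against 51.5% of all tested genes. The called genes ranged from 0.728 to 1.28 times the control level. The 7 became 2 without control 1, control 4 or transgenic 2, 3 without control 5 or transgenic 3, and 4 without transgenic 1. The 3 became 1 without control 3 or control 4. In these fits calls over all tested genes, in either direction, fell from 3094 to between 1155 (without control 4) and 1835 (without control 1).

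**Figure D2:**
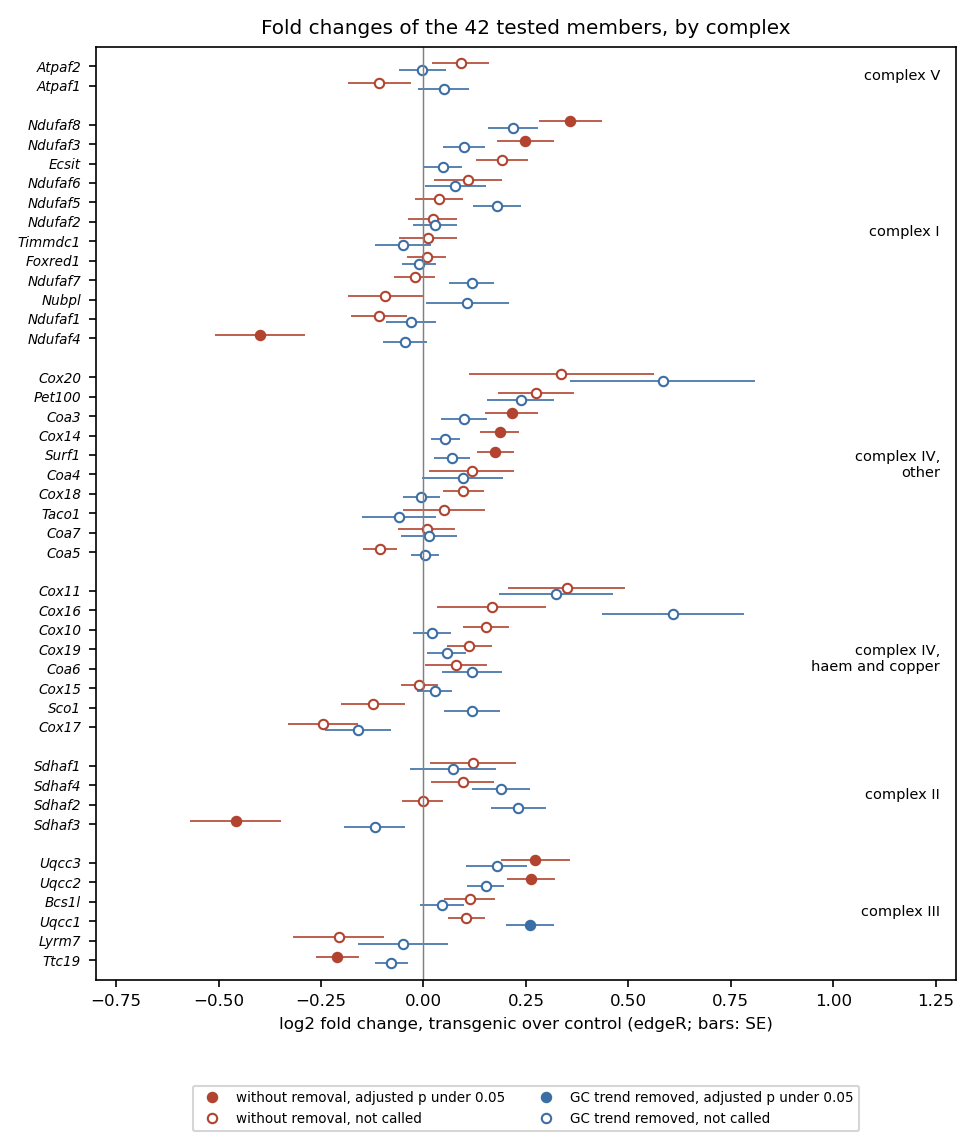
Log2 fold change, transgenic minus control, with its standard error for each of the 42 tested assembly factor genes, grouped by complex, before (red) and after (blue) the GC trend of each library was removed. Filled points have an adjusted p under 0.05. Before removal 7 genes are called higher and 3 lower, and after removal Uqcc1 alone is called.

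These calls moved with the GC content of the transcripts. The 7 genes called higher had 52.6% to 56.0% GC in their longest transcript and 723 to 1815 exon bases, and the 3 called lower had 39.5% to 44.7% GC and 3902 to 5095 exon bases. Of the 21 genes at or above the members' median GC content, 21 had a positive fold change and 7 were called higher. Of the 21 below it, 8 were positive and 3 were called lower. Across the 42 genes, which share libraries and are not independent, the fold change correlated with GC content at r = 0.62 (Pearson) and 0.64 (Spearman), given as a description.

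The same tilt was present over all genes. The slope of log2 deviation on GC content, per 10 percentage points, had a mean of 0.13 ± 0.13 over the transgenic libraries (SD, n = 6) and of -0.15 ± 0.06 over the controls (n = 5). It ran from -0.0607 (transgenic 6) to 0.27 (transgenic 1), and from -0.22 (control 4) to -0.0617 (control 2). Every transgenic library thus lay above every control, though transgenic 6 and control 2 nearly met. When this trend was removed per library, 1 of the 42 genes was called higher (2.38%, against 1.16% of all genes) and 0 were called lower (against 0.821%). In either direction 1.98% of all genes were called. At an unadjusted p under 0.05, 11 were higher and 0 lower, against 3143 of all 17293 genes in either direction. The median log2 fold change of the 42 was then 0.06, against 0.00 over all genes. Of the 42, 31 were above 0, against 49.2% of all genes. The largest values were those of Cox16 (0.61 ± 0.17, adjusted p = 0.0857) and Cox20 (0.58 ± 0.23, adjusted p = 0.187), both among the genes that share most of their exon bases. With the trend on exon length removed as well, 1 of the 42 was called higher and 0 lower, against 1.16% and 0.544% of all genes. The median of the 42 was then 0.03, against -0.00 over all genes. What gave rise to the tilt was not tested.

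**Figure D3:**
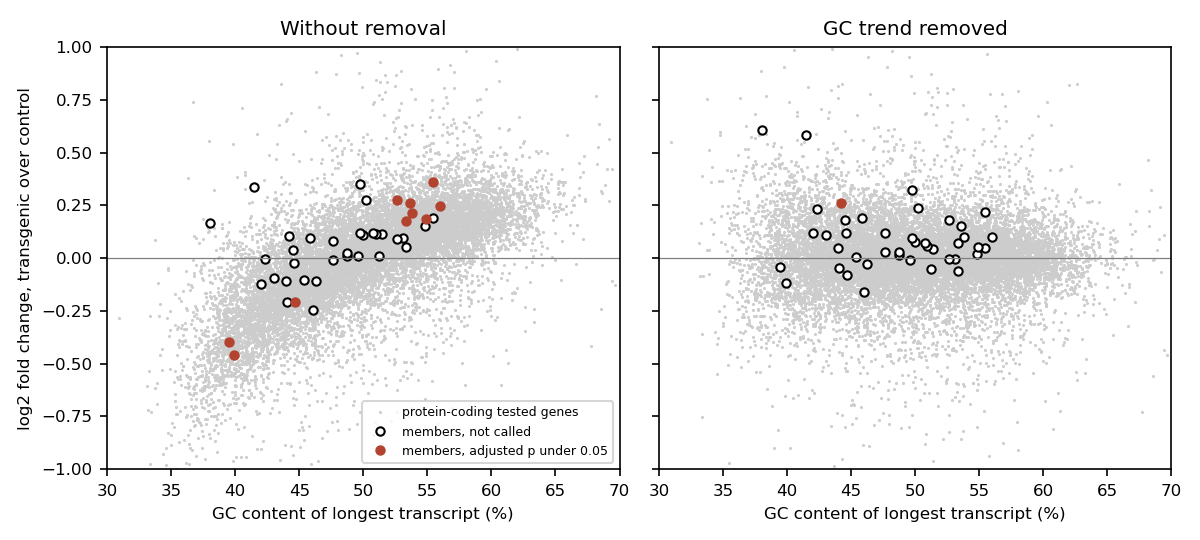
Log2 fold change against GC content of the longest transcript, before (left) and after (right) removal of the GC trend, with tested protein-coding genes in grey, called assembly factors filled and the others open. Genes beyond the axis range are not drawn. Before removal r over the 42 genes is 0.62, and after removal it is -0.23.

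Complex I, the NADH dehydrogenase, is built from modules. Its 12 factors were called higher for 2 genes and lower for 1, with a median log2 fold change of 0.02. The shares over all tested genes were 7.41% called higher and 10.5% lower. Each complex has few factors, and differences between complexes were not tested. Ndufaf8, a small factor that stabilises Ndufaf5 (ENSMUSG00000078572, chr11:120098928-120100705, plus strand), was at 12, 12.9 and 14.5 CPM in the lowest, median and highest transgenic library. Its controls were at 9.52, 11.4, 9.80, 10.6 and 9.96 CPM. Every transgenic library lay above every control. The log2 fold change was 0.36 ± 0.08 (SE, adjusted p = 0.0132), and it stayed called when any 1 of the 11 libraries was left out. Removing the GC trend left 0.22 ± 0.06 (adjusted p = 0.0808), and the groups still did not overlap. On that scale 345 of 17293 genes were higher in transgenic libraries without overlap.

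Ndufaf3 and Ndufaf4 are known to act together in an early intermediate of complex I, and their transcripts went in opposite directions. Ndufaf3 (ENSMUSG00000070283, chr9:108565537-108567434, minus strand) was at 26.4, 29.8 and 32.0 CPM (lowest, median, highest transgenic) and at 22.5, 26.8, 24.3, 24.1 and 25.8 CPM in controls. It rose by 0.25 ± 0.07 (adjusted p = 0.0300), with transgenic 5 and 6 below control 2. Ndufaf4 (ENSMUSG00000028261, chr4:24898083-24905001, plus strand) was at 23.1, 28.8 and 37.0 CPM in transgenic libraries. Its controls were at 37.3, 37.9, 41.0, 43.2 and 37.2 CPM, all above the transgenic libraries, with transgenic 5 and control 5 next to each other. It fell by 0.40 ± 0.11 (adjusted p = 0.0271). The transgenic spread was wide, since transgenic 1 to 4 lay at 23.1 to 28.8 CPM and transgenic 5 and 6 at 37.0 and 35.7 CPM. Without the GC trend Ndufaf3 was at 0.10 (adjusted p = 0.331) and Ndufaf4 at -0.04 (adjusted p = 0.721). Ndufaf3 has 56.0% GC and Ndufaf4 39.5%, the highest and the lowest of the 10 called genes.

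Ecsit, which links complex I assembly to innate immune signalling, was at 39.9, 48.2 and 50.7 CPM in the lowest, median and highest transgenic library and at 42.9, 41.4, 41.3, 41.5 and 38.5 CPM in controls. Transgenic 6 was the low one, and lay below 4 of the 5 controls. The log2 fold change was 0.19 ± 0.06 and did not pass (adjusted p = 0.0505), but without transgenic 6 it was called at an adjusted p of 0.00611, and DESeq2 called it with all libraries (adjusted p = 0.0307). The remaining 8 complex I factors, Ndufaf1, Ndufaf2, Ndufaf5, Ndufaf6, Ndufaf7, Foxred1, Nubpl and Timmdc1, were not called and had log2 fold changes of -0.11 to 0.11. Among them are Foxred1, a flavoprotein of late assembly, at 40.2 ± 1.73 and 40.0 ± 1.39 CPM, and Ndufaf5, which modifies a subunit, at 27.1 ± 1.47 and 26.3 ± 1.61 CPM (transgenic and control, SD, n = 6 and 5).

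Complex II, succinate dehydrogenase, has 4 known factors here. Of these, 0 were called higher and 1 lower, against 7.41% and 10.5% of all tested genes. Sdhaf3, which helps to give the iron-sulphur subunit its clusters (ENSMUSG00000042505, chr6:6956004-7042979, plus strand), was at 8.76, 10.6 and 13.2 CPM in the lowest, median and highest transgenic library. Its controls were at 12.4, 15.1, 15.6, 16.4 and 15.1 CPM. Control 1 was the only control within the transgenic range, and 4 of 5 controls lay above every transgenic library. Sdhaf3 fell by 0.46 ± 0.11 (adjusted p = 0.0181), the largest difference among the called genes. Removing the GC trend left -0.12 ± 0.08 (adjusted p = 0.435).

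The other 3 factors of complex II did not pass. Sdhaf1, which works on the same subunit, was at 3.96, 4.44 and 4.86 CPM in transgenic libraries (lowest, median, highest) and at 3.53, 3.65, 4.23, 4.13 and 4.91 CPM in controls (log2 fold change 0.12 ± 0.11). Sdhaf2, which adds flavin to the catalytic subunit, was at 34.1, 36.9 and 38.9 CPM and at 36.2, 36.0, 37.4, 39.8 and 34.8 CPM (-0.00 ± 0.05). Sdhaf4, which handles the flavinated subunit, was at 10.6, 11.8 and 12.5 CPM and at 10.4, 11.5, 12.6, 10.3 and 9.89 CPM (0.10 ± 0.08). The groups overlapped in all 3. Sdhaf2, with 42.3% GC, moved to 0.23 ± 0.07 after the GC trend was removed, without passing (adjusted p = 0.0874), and its groups no longer overlapped.

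Complex III, the cytochrome bc1 complex, had 2 of 6 factors called higher and 1 lower, against 7.41% and 10.5% of all tested genes. The median log2 fold change of the 6 was 0.11. Uqcc1, Uqcc2 and Uqcc3 are known to work together on cytochrome b, the mitochondrially encoded subunit. Uqcc2 (ENSMUSG00000024208, chr17:27122663-27133916, minus strand) was at 53.1, 57.8 and 62.4 CPM in transgenic libraries (lowest, median, highest) and at 46.1, 54.2, 48.6, 46.6 and 46.3 CPM in controls. Control 2 lay above transgenic 4 only. Uqcc2 rose by 0.26 ± 0.06 (adjusted p = 0.0147) and stayed called without any 1 library, and with the GC trend removed it was at 0.15 ± 0.05 (adjusted p = 0.100).

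Uqcc3 (ENSMUSG00000071654, chr19:8880014-8880923, minus strand) was at 12.2, 13.1 and 16.1 CPM in transgenic libraries and at 10.6, 12.1, 12.1, 10.4 and 10.4 CPM in controls. The groups did not overlap, though transgenic 5 lay next to the 2 highest controls. It rose by 0.27 ± 0.08 (adjusted p = 0.0414), and transgenic 2 was the high library. Uqcc1 (ENSMUSG00000005882, chr2:155846894-155930310, minus strand) was at 53.5, 55.2 and 59.9 CPM and at 50.9, 51.9, 54.9, 50.4 and 50.1 CPM. Its log2 fold change of 0.10 ± 0.05 did not pass (adjusted p = 0.123), and control 3 lay above 2 transgenic libraries.

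Uqcc1, with 44.2% GC, was the one assembly factor called after the GC trend was removed, at 0.26 ± 0.06 (adjusted p = 0.0419). On that scale its log2 CPM was 5.95, 6.05, 5.88, 5.80, 5.79 and 5.70 in transgenic 1 to 6 and 5.61, 5.66, 5.66, 5.53 and 5.56 in control 1 to 5, with no overlap. With 1 library left out and the trend removed, the fold change stayed between 0.22 and 0.29 and was called in 3 of 11 fits. The fits that kept the call were those without control 2, transgenic 5 and transgenic 6. In the other 8 fits 0 of all tested genes passed, with 2490 to 3225 at an unadjusted p under 0.05.

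Ttc19, which clears fragments of the Rieske protein from complex III (ENSMUSG00000042298, chr11:62281473-62328451, plus strand), was at 84.5, 89.0 and 94.0 CPM in transgenic libraries and at 110, 94.9, 108, 101 and 101 CPM in controls. All controls lay above all transgenic libraries, with control 2 closest. It fell by 0.21 ± 0.05 (adjusted p = 0.0197) and stayed called in 10 of 11 fits with 1 library left out. The GC trend removed, it was at -0.08 (adjusted p = 0.326). Bcs1l, which inserts the Rieske protein, was at 0.11 ± 0.06, and Lyrm7, which holds that protein before insertion, at -0.21 ± 0.11. Neither passed.

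**Figure D4:**
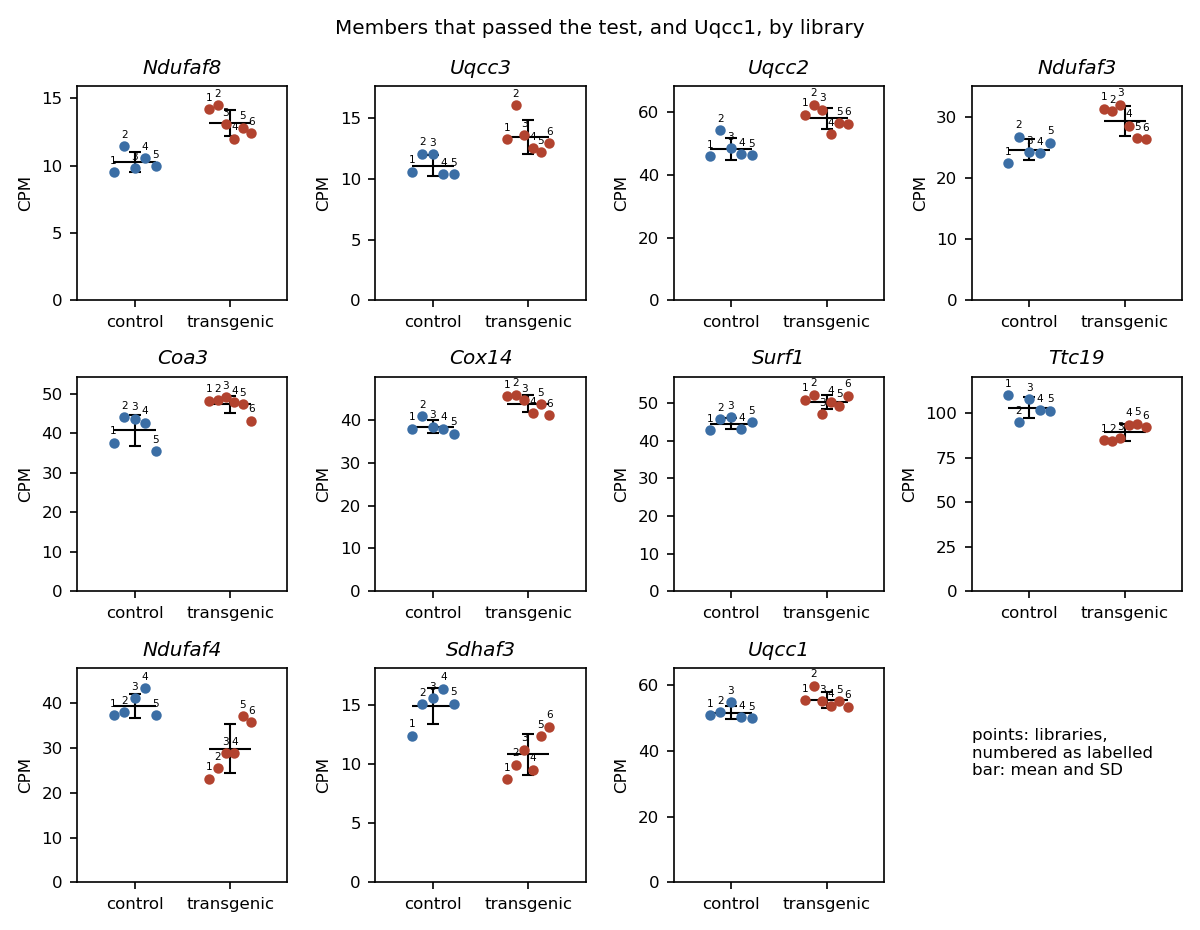
CPM of the called assembly factor genes and Uqcc1 in each of the 6 transgenic and 5 control libraries, numbered as labelled, with the group mean and SD. In Ndufaf8, Surf1, Cox14, Uqcc3, Ndufaf4 and Ttc19 the groups do not overlap, and in Ndufaf4 transgenic 5 and 6 lie next to the controls.

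In complex IV, cytochrome c oxidase, edgeR called 0 of the 8 tested factors of haem and copper delivery in either direction. Their median log2 fold change was 0.10. At an unadjusted p under 0.05 lay 3 of the 8, against 5996 of all 17293 tested genes. DESeq2 called 1 (Cox17). Cox17, the copper chaperone that supplies Sco1 and Cox11, was at 9.22, 10.2 and 11.8 CPM in transgenic libraries (lowest, median, highest) and at 12.6, 11.9, 11.1, 13.2 and 12.4 CPM in controls. Only control 3 lay within the transgenic range. The log2 fold change was -0.25 ± 0.09 (adjusted p = 0.0604). Cox11, which places copper in COX1, was at 5.91, 6.52 and 8.95 CPM and at 6.68, 6.11, 5.05, 4.03 and 4.77 CPM (0.35 ± 0.14, adjusted p = 0.101). Transgenic 1 was the high library, and the groups overlapped.

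Cox10, which starts haem A synthesis, was at 26.5, 29.9 and 32.0 CPM in transgenic libraries and at 26.7, 28.4, 25.5, 27.0 and 26.0 CPM in controls. Transgenic 6 alone lay below the highest control, and the log2 fold change was 0.15 ± 0.06 (adjusted p = 0.0753). Cox19, a small copper-related protein, was at 36.6, 38.3 and 40.6 CPM and at 33.9, 38.4, 32.6, 34.9 and 37.5 CPM (0.11 ± 0.05, adjusted p = 0.157). Cox15, which completes haem A synthesis, was at 30.5 ± 0.755 and 30.7 ± 1.10 CPM (SD, n = 6 and 5, log2 fold change -0.01 ± 0.05). Sco1 (-0.12), Coa6 (0.08) and Cox16 (0.17) did not pass.

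The other complex IV factors had 3 of 10 tested genes called higher and 0 lower, against 7.41% and 10.5% of all tested genes. The median log2 fold change of the 10 was 0.15. Surf1, which takes part in building the COX1 module (ENSMUSG00000015790, chr2:26913381-26916530, minus strand), was at 47.1, 50.6 and 52.2 CPM in transgenic libraries and at 42.8, 45.7, 46.3, 43.0 and 44.9 CPM in controls. Cox14 (ENSMUSG00000023020, chr15:99725618-99728136, plus strand) was at 41.1, 44.0 and 45.8 CPM and at 37.9, 40.9, 38.4, 37.9 and 36.7 CPM. In both genes every transgenic library lay above every control. Surf1 rose by 0.18 ± 0.05 (adjusted p = 0.0222) and Cox14 by 0.19 ± 0.05 (adjusted p = 0.0231).

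Coa3, the partner of Cox14 on new COX1 (ENSMUSG00000017188, chr11:101277968-101279114, minus strand), was at 43.2, 48.1 and 49.1 CPM in transgenic libraries and at 37.6, 44.1, 43.7, 42.7 and 35.5 CPM in controls. Transgenic 6 lay below 2 controls, and the other 5 above all controls. Coa3 rose by 0.21 ± 0.06 (adjusted p = 0.0357). Pet100, a small factor found in a complex IV subassembly, was at 10.3, 12.9 and 13.3 CPM and at 10.2, 9.36, 10.6, 11 and 8.97 CPM (0.27 ± 0.09, adjusted p = 0.0549). Transgenic 5 and 6 overlapped the controls, and transgenic 1 to 4 did not. DESeq2 called Pet100 (adjusted p = 0.0305). After the GC trend was removed, Surf1 (0.07), Cox14 (0.05), Coa3 (0.10) and Pet100 (0.24) had adjusted p-values of 0.440, 0.459, 0.381 and 0.148.

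The remaining 6 tested factors of complex IV, Coa4, Coa5, Coa7, Cox18, Cox20 and Taco1, were not called by edgeR. Taco1, the activator of COX1 translation, was at 10.3 ± 1.20 and 9.92 ± 1.11 CPM, and Cox18, which inserts a domain of COX2, at 21.8 ± 0.606 and 20.4 ± 0.661 CPM (transgenic and control, SD, n = 6 and 5). Coa5 was the lowest of these by fold change, at -0.11 ± 0.04 (adjusted p = 0.0890), and DESeq2 called it (adjusted p = 0.0393).

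For complex V, ATP synthase, Atpaf1 and Atpaf2 are the chaperones of the beta and alpha subunits of its catalytic head. Atpaf1 was at 15.6, 17.5 and 20.1 CPM in transgenic libraries (lowest, median, highest) and at 17.4, 19.7, 20.5, 18.0 and 20.4 CPM in controls (-0.11 ± 0.08). Atpaf2 was at 18.3, 18.7 and 21.9 CPM and at 16.5, 19.0, 17.7, 19.5 and 18.2 CPM (0.09 ± 0.07). The groups overlapped in both, and neither passed in edgeR, at an unadjusted p under 0.05 or in DESeq2.

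Groups that did not overlap were found higher for 4 of the 42 genes (Ndufaf8, Surf1, Cox14 and Uqcc3), against 3.04% of all tested genes, and lower for 2 (Ndufaf4 and Ttc19), against 4.73%. With the GC trend removed, 3 of the 42 (Ndufaf8, Sdhaf2 and Uqcc1) were higher without overlap and 0 lower. Of all 17293 tested genes, 345 and 250 were. Libraries also differed in Xist, the RNA of the inactive X, which was above 100 CPM in transgenic 1 to 3 and control 1, 3 and 4. Transgenic 1 to 3 were also those with the largest GC slopes. Within the libraries with high Xist the difference in mean log2 CPM of Ndufaf4 was -0.65, and within those with low Xist -0.16. For Ndufaf3 the values were 0.41 and 0.05, for Ttc19 -0.32 and -0.07, and for Ndufaf8 0.48 and 0.22. Coa3 (0.24 and 0.22) and Surf1 (0.19 and 0.16) were nearly as large in both. All 10 called genes kept their direction in both sets, which held 3 against 3 and 3 against 2 libraries, and the difference between the sets was not tested. With the Xist level as a covariate all 10 stayed called.

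**Figure D5:**
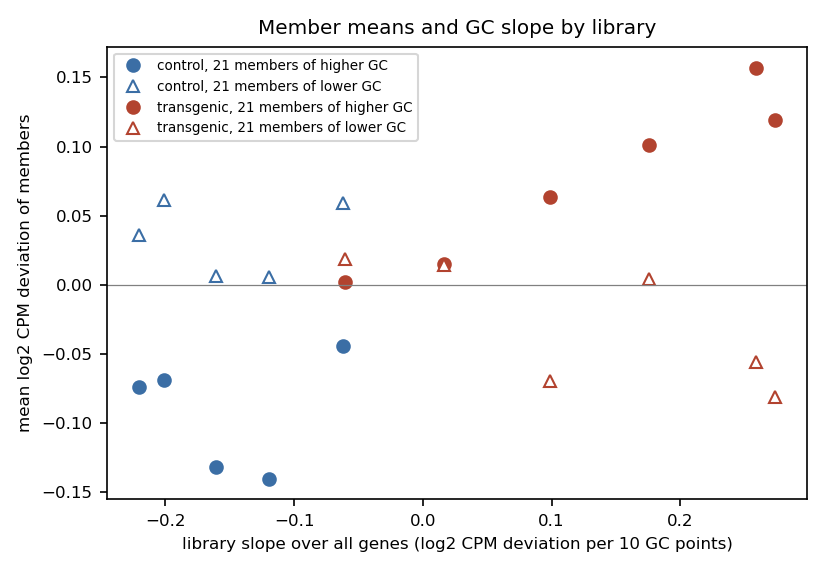
Mean deviation of log2 CPM from each gene's mean, in each library, over the 21 assembly factors at or above (filled circles) and the 21 below (open triangles) the median GC content, against the GC slope of the library over all genes per 10 percentage points. Transgenic libraries, in red, lie at or right of -0.06 and controls, in blue, left of it, and the circles lie above 0 in transgenic and below 0 in control libraries.

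Several of the calls were lost when a single library was left out. Over all tested genes the same fits changed the calls from 3094 to between 1155 (without control 4) and 4712 (without transgenic 6). Without any 1 library Ndufaf8 and Uqcc2 stayed called. Sdhaf3 lost its call without control 4 and Ttc19 without control 3. Surf1 lost it without control 1, control 4 or transgenic 2, and Cox14 also without control 5 or transgenic 3. Ndufaf4 lost it without control 3, 4 or 5 or transgenic 2, 3 or 4. Ndufaf3 and Uqcc3 lost it without control 1, 3, 4 or 5 or transgenic 1, 2 or 3, and Coa3 without control 1, 4 or 5 or transgenic 1, 2, 3 or 4. In the other direction, without transgenic 6 Ecsit, Pet100, Cox17 and Cox10 were called, and Pet100 also without transgenic 5.

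As a description of the set as a whole, the mean deviation of log2 CPM over the 42 genes with the GC trend removed averaged 0.04 ± 0.04 over the transgenic libraries (SD, n = 6) and -0.05 ± 0.03 over the controls (n = 5). The 2 groups did not overlap but nearly met. The lowest transgenic library (transgenic 6) was at 0.00131 and the highest control (control 2) at -0.00308. The 42 genes include Cox16 and Cox20, which had the largest fold changes on this scale and share most of their exon bases. Before removal the genes rich in GC were at 0.08 ± 0.06 and -0.09 ± 0.04, and those poor in GC at -0.03 ± 0.05 and 0.03 ± 0.03.

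In the authors' deposited tables, 9 of the assembly factors were listed as higher and 4 as lower. Among the genes tested here those tables held 10.3% as higher and 11.6% as lower. The 10 genes called above were all listed, with Ecsit, Pet100 and Cox17 in addition. In the authors' deposited table Ndufaf8 had a log2 fold change of 0.35 (adjusted p = 0.000846), Sdhaf3 one of -0.45 (adjusted p = 0.00229) and Cox17 one of -0.24 (adjusted p = 0.0462).

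The subunits of the complexes that these factors build are given for comparison. Over all tested genes 7.41% were called higher and 10.5% lower, and 1.16% and 0.821% after the GC trend was removed. Nuclear subunits of complex I were called higher for 22 of 36 genes and lower for 0 (median log2 fold change 0.22), and those of complexes II to V for 20 of 42 and 0 (median 0.17). After the GC trend was removed, 9 of 36 and 16 of 42 subunits were called higher, against 1 of 42 assembly factors. These were not all genes called before removal. For example, Ndufv2 went from an adjusted p of 0.974 to 0.0477 and Atp5f1 from 0.768 to 0.0314. With the trend on exon length removed as well, 5 of 36 and 12 of 42 subunits were called higher, against 1 of 42 assembly factors. Control means reached 1103 CPM among the subunits (Atp5b) and 103 CPM among the assembly factors. The difference between these lists, and the part of level in it, was not tested. Of the 7 tested mRNAs encoded in the mitochondrion, 3 were called lower (median -0.41) and 0 after removal (median 0.19).

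Other factors with which the assembly proteins work were taken from lists written with earlier results known. The shares over all tested genes were 7.41% called higher and 10.5% lower. Of 20 further assembly factors whose symbols lie outside the naming rule, 5 were called higher and 0 lower (median 0.08), led by Dmac2 (0.18) and Fmc1 (0.33). Iron-sulphur cluster genes had 3 of 15 called higher (median 0.11). Among them Glrx5, which carries clusters onward, rose by 0.27. Inner membrane insertion and quality control genes had 4 of 11 called higher and 1 lower (median 0.13). In that list the protease Yme1l1 fell by 0.50 and the prohibitin Phb2 rose by 0.21.

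Of 12 regulators of mitochondrial genes, 4 were called lower and 1 higher (median -0.08), against 10.5% and 7.41% of all tested genes. Gabpa, the ETS factor whose letters were searched above, fell by 0.46 (adjusted p = 0.0125), and Creb1 fell by 0.50 (adjusted p = 0.0190). Factors of mitochondrial mRNA stability and translation had 2 of 15 called lower (13.3%, near the 10.5% of all tested genes) and 0 higher (median 0.03). Fastkd1 was at -0.24 and Fastkd2 at -0.22. After the GC trend was removed, the only one of the 72 genes called in these 5 lists was a regulator, Yy1, which was lower at -0.19 (adjusted p = 0.0404). Of all tested genes 1.98% were then called. At an unadjusted p under 0.05, 16 of the 72 were higher and 6 lower, against 3143 of all 17293 genes in either direction. Gabpa was then at -0.19 (adjusted p = 0.146).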

How the data were processed

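For 11 CA1 libraries, polyadenylated RNA went through a TruSeq kit that does not mark strand and was read as 50-base single ends, per the labels' protocols. The deposited files hold 1 raw count per gene and library for 48709 identifiers on build mm10. Tools named per the submitters' processing notes are STAR 2.5.2b, Subread 1.5.1, featureCounts and FastQC 0.11.5, and the sources used here do not give their settings. There are also deposited tables, made by the authors, of 1780 genes higher and 2014 lower, with a log2 fold change, an adjusted p-value and a scaled signal per library, of which the signal was not used. Totals of 14263784 to 36898689 counts set the precision.

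Names, positions, exon length (union of exons) and GC content (longest transcript) came from GENCODE vM21 on the same build. Members were found by symbol. In this annotation Coa8 is named Apopt1, which the naming rule does not take, and the symbols Coa1, Uqcc4, Uqcc5 and Uqcc6 gave no gene. Genes were kept with filterByExpr by genotype (17293 genes, 99.9% of counts, 42 of 44 members). Counts were scaled with TMM and tested with the quasi-likelihood F test of edgeR 4.0.16 in R 4.3.3, 6 transgenic against 5 control libraries without a covariate. An adjusted p (Benjamini-Hochberg over all tested genes) under 0.05 is a call. Each standard error is the fold change divided by the root of F. CPM values are TMM-scaled counts relative to the library total, and log2 CPM used a prior count of 2. The GC trend of a library was a lowess curve (span 0.3) of log2 deviation on GC content, entered as an offset.

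Alternatives were DESeq2 1.42.0, its size factors, other filters, GC with length, Xist as a covariate, the replicate number as a block, and each library left out in turn. Fits without 1 library with the GC trend removed, and differences within libraries of high or low Xist, were chosen after seeing the data. The procedure was tested on simulated data. Genes with values in every library were, in each class, up to 4 with the smallest p, plus those called lower or called with the GC trend removed (22 genes), and from each other list up to 2 with the smallest p. The members and lists were chosen with earlier results of these data known. Values of 1 gene from the other lists are left out here. Gabpa, Creb1 and other genes beside the members come from those lists, and Yy1, Foxred1, Ndufaf5, Cox15, Bcs1l, Lyrm7, Sco1, Coa6, Cox16, Taco1, Cox18 and Coa5 were named after their values were seen.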

Additional observations from a re-analysis of the deposited data

Results flagged for a closer look

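A single library lay apart from the rest of its group in 4 of the 44 groups of values examined (the 22 genes with values in every library, in each genotype), by the ratio of the gap to the range. Chance marks about 1 in 20 such groups. Coa3 was lowest in transgenic 6, at 43.17 CPM, while the other transgenic libraries were at 47.36 to 49.12. Cox11 was highest in transgenic 1, at 8.949 CPM, against 5.911 to 6.977 in the others. Uqcc1 and Uqcc3 were both highest in transgenic 2, Uqcc1 at 59.94 CPM against 53.51 to 55.58 and Uqcc3 at 16.07 CPM against 12.19 to 13.64.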

How the results depend on the processing

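The counts of called genes moved most with GC content and with single libraries. Members called higher (7 as reported) numbered 1 with the GC trend removed, 1 with GC and length trends removed, 4 with the GC trend removed and the replicate block, 3 with no filter and 11 with the replicate block, and 2 to 10 with 1 library left out. Members called lower (3) numbered 5 with DESeq2, 0 in each fit with the GC trend removed, and 1 to 4 with 1 library left out. Over all genes, 1282 higher became 200 (GC), 200 (GC and length), 434 (GC and block), 662 (no filter) and 2076 (replicate block), and 361 to 2132 with 1 library left out. The 1812 lower became 142, 94 and 320 in the fits with GC removed, and 794 to 2580 with 1 library left out. Over all genes, leaving out transgenic 6 gave the most calls in both directions and leaving out control 4 the fewest. The 10 called members kept their direction in every fit run. All 10 stayed called with a CPM filter, DESeq2, its size factors, Xist or the block, 6 of 10 with no filter and 0 with the GC trend removed. With 1 library left out the call held in 73 of 110 cases. Atpaf1 (-0.11) turned to 0.049 (GC), 0.036 (GC and length) and 0.036 (GC and block). Atpaf2 (0.09) turned to -0.00292, -0.032 and -0.000224 in the same fits. Sdhaf2 (-0.00) turned to 0.23, 0.25 and 0.26, where the last passed (adjusted p = 0.0475), to 0.00837 with Xist, and ran from -0.0205 to 0.0271 with 1 library left out, above 0 without control 3, control 4, transgenic 2 or transgenic 4. The cause of these shifts was not tested. The replicate numbers did not pair the samples: the correlations of deviations in the 5 same-numbered pairs were 0.20, -0.03, -0.19, -0.05 and 0.02, and the block leaves out transgenic 6. Depth limits Cox20, Cox16, Coa4 and Nubpl most.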
